A study of Homo sapiens with 8 samples.

Results

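The genes described here repair broken or crosslinked DNA by homologous recombination, the Fanconi anaemia pathway and related routes, or signal such damage to the cell cycle. The members were a list of 41 named genes, chosen with earlier results of these data known. Their counts beside the shares of all genes are therefore a description, not an independent test. Every probe set that the platform annotation ties to one of these genes alone was taken. That gave 75 probe sets for 36 genes, out of 54675 probe sets in the table and 19775 genes with a probe set of their own. The annotation used here ties no probe set to BRCA2, FANCA, FANCD2, PMS2 or RBBP8 alone, so these 5 genes were not analysed here. All 36 genes passed the filter on low values, and 16 of their 75 probe sets lay below it.

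Total RNA of A549, a human lung adenocarcinoma cell line, was hybridised to 8 Affymetrix expression arrays, 2 for each of 4 groups. Cells were transfected with a small interfering RNA (siRNA) against SRC-1 (gene NCOA1), a coactivator of nuclear receptors, or with a control siRNA, and were kept for 36 h in medium with 10% dialyzed serum. Each siRNA was then followed by DMEM with glucose or DMEM without it, again with 10% dialyzed serum, so that the groups are SRC-1 siRNA with glucose or with none, and control siRNA with glucose or with none. All groups share the transfection, no untransfected group was analysed here, and the time in the last medium is not stated in the labels. The labels name the 2 arrays of each group biological replicates without describing separate cultures, and p-values therefore cover only the spread between arrays. The design asks what SRC-1 depletion does to gene expression in each medium.

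Values are the deposited signals, read as log2, and a difference of 1 on this scale is a 2-fold change. The array medians lay between 4.973 and 5.007, and the 2 arrays of a group correlated at 0.9972 to 0.9978 over 13584 genes, each read on its brightest probe set. The epithelial keratins KRT8, KRT18, KRT19 and KRT7 had signals of 10.23 or more on every array, and EPCAM and CDH1 of 7.89 or more. The leukocyte marker PTPRC and the endothelial markers CDH5 and KDR lay below the filter of 4.80, as did the collagen genes COL1A2 and COL3A1, while COL1A1 lay between 7.74 and 8.01. Of the fibroblast, leukocyte and endothelial markers that passed the filter (4, 2 and 2), LUM alone was called with glucose, at 0.75 with SRC-1 siRNA and 0.64 with control siRNA. LUM passed the filter only through its arrays with glucose, since its means without glucose were 4.78 with SRC-1 siRNA and 4.71 with control siRNA. The part of LUM in the results was not tested. NCOA1 stood at 5.47 and 5.18 with SRC-1 siRNA and glucose, against 8.60 and 8.42 with control siRNA and glucose. Without glucose it stood at 5.22 and 5.09 with SRC-1 siRNA, against 8.34 and 8.24 with control siRNA, and it was 9.10-fold lower with glucose and 8.78-fold lower without (adjusted p = 1.44e-05 and 1.65e-05, limma). The signal difference between the 3' and 5' probe sets of beta-actin, a sign of RNA quality, was 0.51 to 0.64 on the arrays with glucose and 0.41 to 0.54 on those without, and its part in the results was not tested.

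In homologous recombination, nucleases and helicases trim a broken end to single-stranded DNA, BRCA1 with BARD1, PALB2 and BRCA2 prepares it for pairing, and proteins such as RAD51C, XRCC3 and RAD54L assist the exchange with an intact copy. The Fanconi core complex, with the ubiquitin-conjugating enzyme UBE2T, marks FANCD2 and FANCI with ubiquitin at crosslinked DNA. The kinases ATM and ATR sense breaks and stalled forks and act through CHEK2 and CHEK1. Recombination needs a sister copy, and many of these genes are transcribed mainly as cells enter and pass through S phase, often through E2F factors.

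Most of these genes had more mRNA signal with glucose than without, whichever siRNA the cells had received. With SRC-1 siRNA, 24 of 36 were higher with glucose and 3 lower, where 24.6% of the 13584 genes were called higher and 20% lower (limma, Benjamini-Hochberg adjusted p below 0.05). With control siRNA, 26 were higher and 2 lower, where 23.6% of all genes were called higher and 21.6% lower. The median difference of the 36 was 0.66 with SRC-1 siRNA and 0.58 with control siRNA, where the medians over all genes were 0.0059 and 0.00088. At least 2-fold rises were called for 10 of the 36 with each siRNA, against 2.36% of all genes with SRC-1 siRNA and 2.15% with control siRNA. Both arms called 24 members higher, where 20.6% of all genes were called higher in both, and 2 members lower, FANCF and XPC, where 17.4% were, and 0 members went opposite ways. The 2 arms share no array, but both come from 1 fit with a shared estimate of the spread, so their calls are not independent.

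On 27 of the 36 genes all 4 arrays with glucose lay above all 4 without, which held for 28.6% of all genes tested. On 5 genes, RAD50, WRN, FANCF, ATM and XPC, all 4 lay below, which held for 25.3%. These readings rest on the brightest probe set of each gene, and on the RAD50 probe set 238656_at all 4 lay above. The groups overlapped on NBN, PALB2, RAD51D and FANCE.

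**Figure D1:**
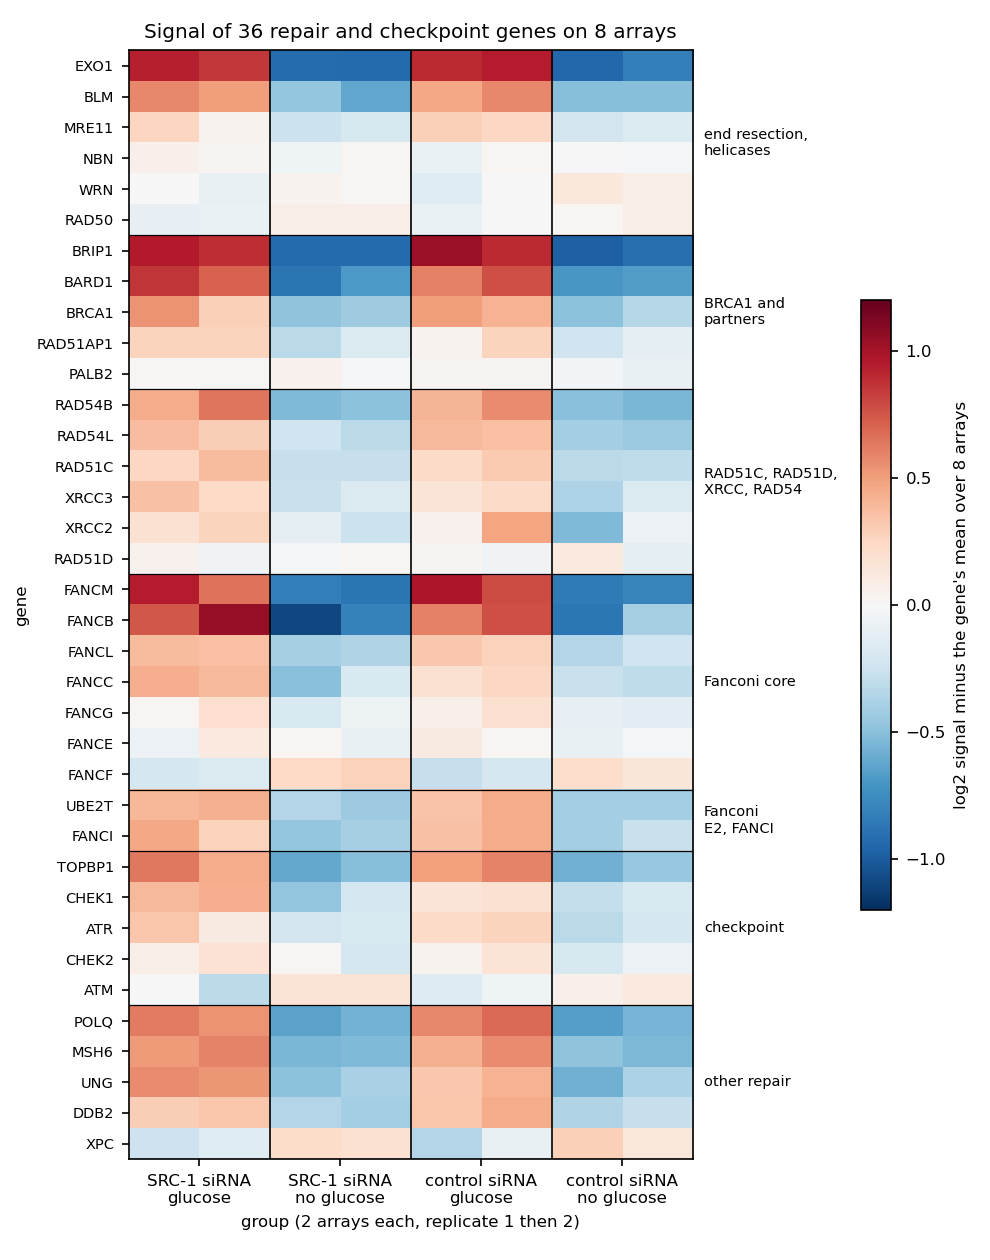
Signal of the brightest probe set of each of the 36 genes (rows, grouped by role) on each of the 8 arrays (columns, 2 per group), as the log2 signal minus the mean of that gene over the 8 arrays, red above and blue below. The columns with glucose are red and those without are blue for most rows, with EXO1, BRIP1, FANCM and FANCB the deepest, while FANCF, XPC, RAD50, WRN and ATM run the other way.

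The members' promoters were searched for E2F words, meaning TTTCCCGC, TTTCGCGC, TTTGCCGC or TTTGGCGC on either strand. The RefSeq promoter table (GRCh38.p14) holds windows of 300 bases, 250 before and 50 after the start of a gene, and matched 37 of the 41 names with 53 windows. NBN, WRN, RAD54B and FANCI had no entry. An E2F word was found in 11 of the 53 windows (20.8%), of 10 genes, and in 3.31% of all 35116 windows. Among members called higher with glucose in both arms it was in 5 of 34 windows (14.7%), and among the other measured members in 2 of 12 (16.7%). The remaining windows with the word belong to FANCA, FANCD2 and PMS2, which were not analysed on the arrays. The CHR word TTTGAA, found in promoters of many mitotic genes, was in 13.2% of the members' windows and 15.2% of all windows. The word CCAAT was in 47.2% of the members' windows and 34.6% of all. A match is a description of letters, not a binding site. EXO1 and UNG have 2 windows each, MSH6 has 4 and TOPBP1 has 1, and a single window of each gene holds an E2F word. The 4 windows below belong to the members with the largest glucose difference among those called in both arms that hold an E2F word. They run from base -100 to base +20 of the start, 5′ to 3′, with the E2F word in capitals, and no base is numbered 0.
EXO1 promoter (chr1:241848104-241848223, plus strand): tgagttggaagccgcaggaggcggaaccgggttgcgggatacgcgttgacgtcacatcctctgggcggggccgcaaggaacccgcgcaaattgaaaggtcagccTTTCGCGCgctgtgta
TOPBP1 promoter (chr3:133661922-133662041, minus strand): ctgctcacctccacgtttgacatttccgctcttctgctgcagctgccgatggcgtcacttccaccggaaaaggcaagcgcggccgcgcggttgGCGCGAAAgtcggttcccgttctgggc
MSH6 promoter (chr2:47783045-47783164, plus strand): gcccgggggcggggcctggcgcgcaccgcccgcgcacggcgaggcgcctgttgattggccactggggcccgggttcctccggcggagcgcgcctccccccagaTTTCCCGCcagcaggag
UNG promoter (chr12:109098072-109098191, plus strand): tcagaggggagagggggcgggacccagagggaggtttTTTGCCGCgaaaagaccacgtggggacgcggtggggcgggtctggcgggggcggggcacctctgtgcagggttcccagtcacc
The words begin at base +5 in EXO1, -7 in TOPBP1, +4 in MSH6 and -63 in UNG, and the TOPBP1 word, GCGCGAAA as printed, is TTTCGCGC read on the opposite strand. BRIP1, FANCM, FANCB, BARD1 and POLQ, whose signals differed more than that of TOPBP1, had none of the 4 words in their windows.

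Among the genes of end resection, the exonuclease EXO1, which lengthens the trimmed end, gave the largest response. It had 8.42 and 8.34 with glucose, against 6.56 and 6.56 without, in SRC-1 siRNA cells. In control siRNA cells it had 8.38 and 8.43 with glucose, against 6.55 and 6.67 without. All 4 arrays with glucose lay well above all 4 without, and the rise was 3.53-fold with SRC-1 siRNA (1.82 ± 0.071, SE, adjusted p = 1.07e-06, limma) and 3.47-fold with control siRNA (1.80 ± 0.071, adjusted p = 1.14e-06). BLM, the helicase that works with EXO1 and also dissolves recombination intermediates, had 8.45 and 8.38 with glucose, against 7.41 and 7.25 without, under SRC-1 siRNA. Under control siRNA it had 8.34 and 8.46, against 7.36 and 7.36. It rose 2.12-fold and 2.05-fold in these arms.

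Of the MRN complex, which binds the broken end first, MRE11 alone was called on the probe set used for each gene. This nuclease rose by 0.38 ± 0.082 with SRC-1 siRNA and 0.46 ± 0.082 with control siRNA, and its arrays with glucose lay between 7.87 and 8.11, against 7.57 to 7.67 without. RAD50, its ATPase, differed by -0.17 (95% interval -0.32 to -0.02, adjusted p = 0.0607) and -0.09 (-0.24 to 0.06, adjusted p = 0.299) in the same arms and was not called. A dimmer RAD50 probe set above the filter, 238656_at, was called higher in both arms, at 0.69 with SRC-1 siRNA and 0.92 with control siRNA. With SRC-1 siRNA RAD50 was called lower under quantile normalization (-0.20, adjusted p = 0.0265, limma), a filter at the 60th percentile (-0.17, adjusted p = 0.0341) and a trend prior (-0.17, adjusted p = 0.0451). The mean of its probe sets called it higher with control siRNA (0.25, adjusted p = 0.0345). NBN, the subunit that recruits ATM, was not called either, at 0.06 (-0.10 to 0.21) and -0.02 (-0.17 to 0.14), and its arrays with and without glucose overlapped. The helicase WRN differed by -0.08 and -0.17 without a call.

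Of BRCA1 and its partners, BRIP1, a helicase that binds BRCA1, had the largest difference. It had 8.34 and 8.27 with glucose, against 6.45 and 6.45 without, in SRC-1 siRNA cells, and 8.41 and 8.28, against 6.40 and 6.48, in control siRNA cells. It rose 3.61-fold (1.85 ± 0.071) and 3.74-fold (1.90 ± 0.071). BARD1, which forms the ubiquitin ligase with BRCA1, had 9.29 and 9.14 with glucose, against 7.56 and 7.74 without, with SRC-1 siRNA. With control siRNA it had 9.04 and 9.21, against 7.74 and 7.77. Its rise was 2.96-fold with SRC-1 siRNA and 2.59-fold with control siRNA, and the difference between the arms was not called (interaction 0.19, adjusted p = 0.999). Its other probe sets, 205345_at and 242655_at, gave interactions of -0.040 and 0.68, which were not called either.

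BRCA1 itself had 9.97 and 9.72 with glucose, against 8.94 and 9.01 without, under SRC-1 siRNA, and 9.93 and 9.84, against 8.93 and 9.09, under control siRNA. All 4 arrays with glucose stood above all 4 without, and the rise was 1.83-fold in each arm (0.87 ± 0.097 and 0.88 ± 0.097). RAD51AP1, an accessory factor of strand pairing, rose by 0.51 ± 0.095 with SRC-1 siRNA and 0.33 ± 0.095 with control siRNA. The control call of RAD51AP1 was lost without replicate 1 of control siRNA without glucose (0.26, adjusted p = 0.127) or replicate 2 of control siRNA with glucose (0.21, adjusted p = 0.129). The bridge between BRCA1 and BRCA2, PALB2, lay between 8.84 and 8.99 on all 8 arrays and was not called, with intervals of -0.15 to 0.14 and -0.06 to 0.23.

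**Figure D2:**
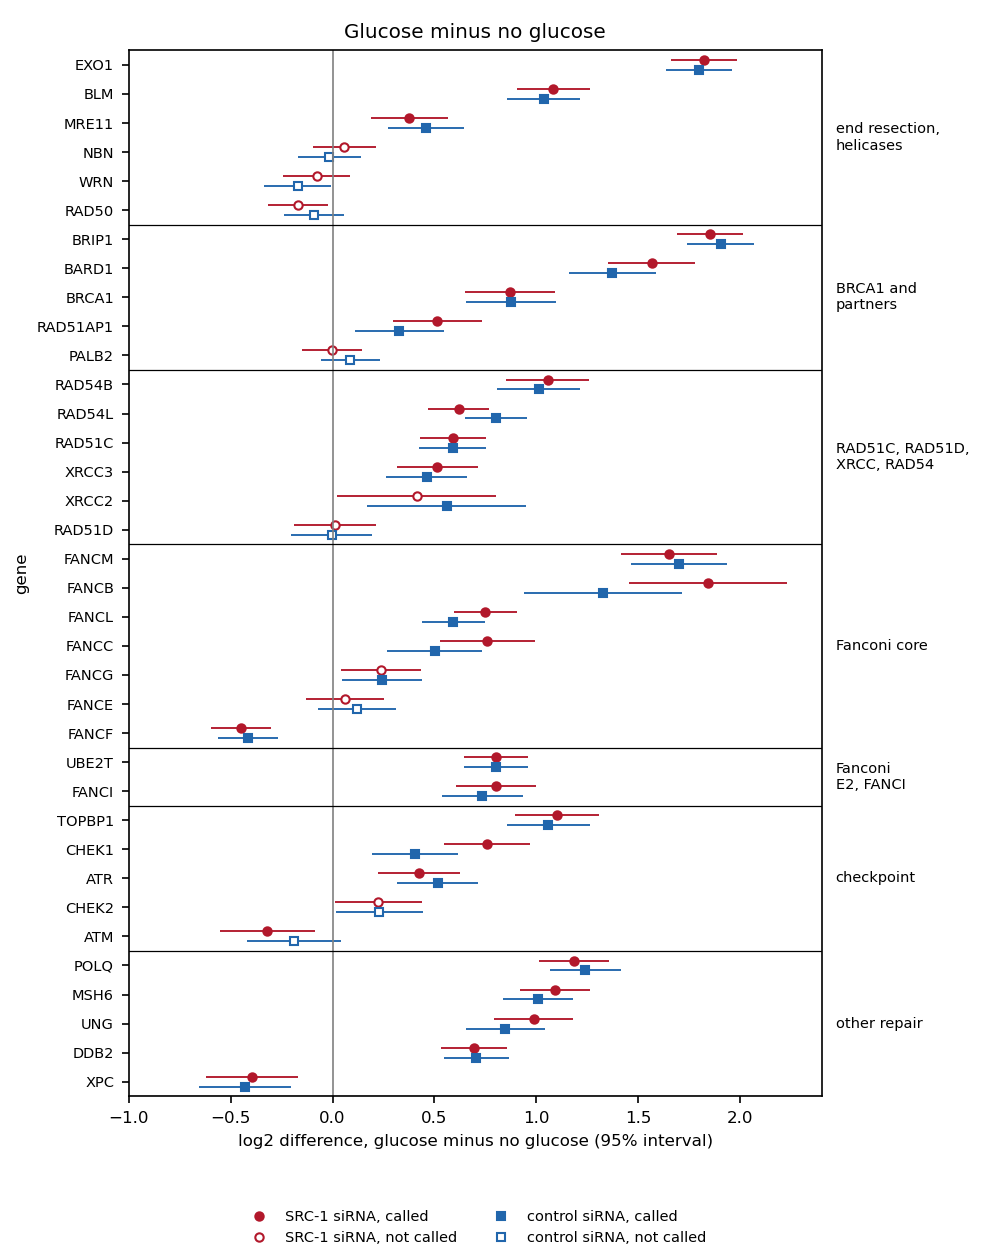
Log2 difference between cells with and without glucose for each of the 36 genes, with SRC-1 siRNA (circles) and control siRNA (squares). Lines are 95% intervals from the limma fit on 2 arrays a group and filled symbols mark an adjusted p below 0.05. Both symbols of a gene lie close together for most rows, from FANCF at -0.45 and -0.42 to BRIP1 at 1.85 and 1.90.

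RAD51C, RAD51D, XRCC2 and XRCC3, which work in shared complexes, did not all receive the same calls on the probe set used for each. Differences between these genes were not tested. RAD51C, which binds XRCC3, had 10.80 and 10.93 with glucose, against 10.28 and 10.27 without, with SRC-1 siRNA and 10.78 and 10.87, against 10.23 and 10.24, with control siRNA. It rose by 0.59 ± 0.071 in both arms. XRCC3 rose by 0.51 ± 0.087 with SRC-1 siRNA and 0.46 ± 0.087 with control siRNA, at signals of 5.07 to 5.79. XRCC2, also dim, was called with control siRNA (0.56 ± 0.17, adjusted p = 0.026) and not with SRC-1 siRNA (0.41 ± 0.17, adjusted p = 0.081). The control call of XRCC2 was lost with only the groups compared (0.56, adjusted p = 0.0511, limma). It was also lost without replicate 1 of control siRNA without glucose (0.33) or replicate 2 of control siRNA with glucose (0.35). The SRC-1 siRNA difference of XRCC2 was called under a trend prior, with only the groups compared, and without any one of the 4 control siRNA arrays (adjusted p = 0.00767 to 0.0492), so the arms are not shown to differ. RAD51D, which binds XRCC2, lay between 6.95 and 7.17 on all arrays, at 0.01 (-0.19 to 0.21) and -0.00 (-0.20 to 0.20). Its dimmer probe set 37793_r_at, also above the filter, gave 0.33 (0.02 to 0.64) with SRC-1 siRNA and 0.34 (0.04 to 0.65) with control siRNA. It was called in neither arm, so a rise of RAD51D is not excluded.

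Both RAD54 genes, which encode motor proteins that remodel DNA during strand exchange, rose with glucose. RAD54B had 8.49 and 8.69 with glucose, against 7.51 and 7.55 without, with SRC-1 siRNA (2.08-fold), and 8.45 and 8.61, against 7.54 and 7.49, with control siRNA (2.02-fold). RAD54L had 6.83 and 6.76, against 6.21 and 6.13, with SRC-1 siRNA (0.62 ± 0.066), and 6.84 and 6.82, against 6.04 and 6.01, with control siRNA (0.80 ± 0.066). No array without glucose reached the arrays with glucose for either gene.

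Of the 7 Fanconi core genes, 4 rose in both arms, where 20.6% of all genes did, and FANCF fell in both, where 17.4% did. FANCG was called higher in the control arm alone, at nearly the same difference in both arms. FANCM, the translocase that anchors the complex on DNA, had 7.54 and 7.26 with glucose, against 5.77 and 5.73 without, in SRC-1 siRNA cells, and 7.57 and 7.39, against 5.76 and 5.80, in control siRNA cells. That is a 3.14-fold and a 3.25-fold rise. FANCB, a scaffold next to the catalytic subunit FANCL, had 6.66 and 6.96, against 4.82 and 5.11, with SRC-1 siRNA (1.84 ± 0.17, 3.59-fold), and 6.53 and 6.69, against 5.05 and 5.52, with control siRNA (1.33 ± 0.17, 2.51-fold). Its signals without glucose were close to the filter of 4.80. FANCL, the ubiquitin ligase of the complex, rose by 0.75 ± 0.068 and 0.59 ± 0.068, and FANCC by 0.76 ± 0.10 and 0.50 ± 0.10.

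FANCF, an adaptor of the complex, fell with glucose. It had 7.88 and 7.92 with glucose, against 8.33 and 8.37 without, with SRC-1 siRNA and 7.82 and 7.89, against 8.30 and 8.23, with control siRNA. All 4 arrays with glucose lay below all 4 without, and the fall was 1.36-fold (-0.45 ± 0.065, adjusted p = 6.87e-04) and 1.33-fold (-0.42 ± 0.065, adjusted p = 0.00103). FANCG differed by 0.24 ± 0.086 in both arms, which was called with control siRNA (adjusted p = 0.0475) and missed with SRC-1 siRNA (adjusted p = 0.0513). Leaving out either control array with glucose, either control array without glucose or either SRC-1 siRNA array without glucose ended the control call of FANCG. Quantile normalization, no filter and dropping probe sets ending in _s_at or _x_at also ended it (adjusted p = 0.0733, 0.0845 and 0.0542, limma). With SRC-1 siRNA, 7 of the alternatives called FANCG higher (adjusted p = 0.0241 to 0.0472), so the arms are not shown to differ. FANCE, the subunit that contacts FANCD2, was not called at 0.06 (-0.13 to 0.25) and 0.12 (-0.07 to 0.31).

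At the ubiquitin step, UBE2T had 10.66 and 10.69 with glucose, against 9.91 and 9.83 without, with SRC-1 siRNA, and 10.60 and 10.71, against 9.86 and 9.85, with control siRNA. It rose 1.74-fold in each arm (0.80 ± 0.068). FANCI, which is ubiquitinated with FANCD2, had 11.13 and 10.94, against 10.21 and 10.27, with SRC-1 siRNA. With control siRNA it had 11.02 and 11.11, against 10.26 and 10.40. The arrays with glucose stood apart from those without for both genes, and FANCI rose by 0.80 ± 0.087 and 0.73 ± 0.087.

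Of the checkpoint genes, TOPBP1, ATR and CHEK1 rose in both arms. TOPBP1, which activates ATR, had 9.68 and 9.49 with glucose, against 8.43 and 8.54 without, with SRC-1 siRNA, and 9.54 and 9.65, against 8.48 and 8.59, with control siRNA, a 2.15-fold and a 2.08-fold rise. ATR rose by 0.42 ± 0.087 and 0.52 ± 0.087. CHEK1, the kinase that ATR activates, had 8.92 and 8.97, against 8.06 and 8.32, with SRC-1 siRNA (0.76 ± 0.092). With control siRNA it had 8.69 and 8.71, against 8.25 and 8.35 (0.40 ± 0.092), and that call was lost without replicate 1 of control siRNA without glucose (0.35, adjusted p = 0.0536). CHEK2, the kinase that ATM activates, differed by 0.22 and 0.23 and was not called (adjusted p = 0.0836 and 0.0776, limma). With control siRNA, CHEK2 was called higher under a filter at the 60th percentile (0.23, adjusted p = 0.048, limma). With SRC-1 siRNA, its difference was 0.335 without replicate 1 of SRC-1 siRNA without glucose, so a rise of CHEK2 is not excluded. ATM had 7.75 and 7.43 with glucose, against 7.91 and 7.91 without, with SRC-1 siRNA and 7.59 and 7.69, against 7.80 and 7.86, with control siRNA. It was called lower with SRC-1 siRNA (-0.32 ± 0.10, adjusted p = 0.0316) and not with control siRNA (-0.19 ± 0.10, adjusted p = 0.167). The SRC-1 siRNA call of ATM was lost with no filter (adjusted p = 0.0554, limma) and with only the groups compared (adjusted p = 0.0585). It was also lost without either array of SRC-1 siRNA without glucose and without replicate 2 of SRC-1 siRNA with glucose (-0.16). The brightest ATM probe set whose name ends in neither _s_at nor _x_at gave -0.086.

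Of the members from other repair routes, the polymerase POLQ, which joins ends through short matching stretches, had 9.0 and 8.91 with glucose, against 7.74 and 7.81 without, in SRC-1 siRNA cells. In control siRNA cells it had 8.95 and 9.06, against 7.71 and 7.82, and it rose 2.27-fold and 2.36-fold. MSH6, which finds mismatches, had 11.46 and 11.55, against 10.40 and 10.43, with SRC-1 siRNA and 11.38 and 11.53, against 10.47 and 10.41, with control siRNA. Its rise was 2.13-fold and 2.01-fold. UNG, which removes uracil from DNA, rose 1.98-fold with SRC-1 siRNA (0.99 ± 0.085) and 1.80-fold with control siRNA (0.85 ± 0.085).

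The 2 damage sensors of nucleotide excision repair went opposite ways. DDB2 had 9.56 and 9.60 with glucose, against 8.91 and 8.86 without, with SRC-1 siRNA and 9.60 and 9.71, against 8.90 and 8.99, with control siRNA, and rose by 0.69 ± 0.070 and 0.71 ± 0.070. XPC had 8.91 and 9.0, against 9.37 and 9.33, with SRC-1 siRNA and 8.81 and 9.07, against 9.44 and 9.29, with control siRNA, and fell by 0.40 and by 0.43 on the log2 scale (adjusted p = 0.0108 and 0.00718, limma). Neither gene had overlapping arrays. Leaving out replicate 1 of SRC-1 siRNA with or without glucose, or replicate 1 of control siRNA without glucose, ended the call of XPC in that arm.

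The 75 probe sets were also fitted one by one among all 54613 probe sets that are no controls, with no filter. With SRC-1 siRNA 43 were called higher and 4 lower, where 10.1% of all probe sets were called higher and 8.77% lower. With control siRNA 41 were higher and 5 lower, where 10.1% and 9.52% of all were. All 4 arrays with glucose lay above all 4 without on 40 member probe sets above the filter and on 6 of the 16 under it, where 15.6% of all probe sets did. They lay below on 8 above the filter and 0 under it, where 14.9% of all did. These shares, like those of called probe sets, include probe sets at any signal and those tied to no gene. Among genes passing the filter, all 4 arrays with glucose lay above on 28.6% and below on 25.3%, which is nearer in kind to the member probe sets above the filter. Of the 40, FANCB 1557218_s_at and BARD1 242655_at passed the filter only through their arrays with glucose. Without glucose they lay at 4.09 to 4.38 and at 4.58 to 4.94, so their place among the 40 follows in part from the filter. More than 1 probe set was found for 18 genes. All probe sets of BRCA1, BARD1, BRIP1, RAD51C, FANCB, FANCM and FANCI were called higher in at least 1 arm, and both of FANCF lower.

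CHEK1, POLQ, RAD50 and ATM had probe sets that disagreed. Of the CHEK1 probe sets, 205394_at, 238075_at and 205393_s_at rose in both arms, by 0.76, 0.90 and 0.71 with SRC-1 siRNA and by 0.40, 0.74 and 0.71 with control siRNA. The fourth, 229423_at, had 5.56 and 5.22 with glucose, against 6.51 and 6.42 without, under SRC-1 siRNA (-1.07, adjusted p = 0.00396). Under control siRNA it had 6.01 and 5.39, against 6.40 and 6.24 (-0.62, adjusted p = 0.0506). For RAD50, 208393_s_at and 209349_at were not called, while 238656_at had 6.88 and 6.48, against 6.00 and 5.97, with SRC-1 siRNA and 6.62 and 6.78, against 5.90 and 5.66, with control siRNA and rose by 0.69 and 0.92. The dim POLQ probe set 207746_at was called lower with control siRNA (-0.46, adjusted p = 0.0233) and not with SRC-1 siRNA (0.083). For ATM, 208442_s_at was called lower with control siRNA (-0.44, adjusted p = 0.0426) and not with SRC-1 siRNA (-0.34), 210858_x_at, used above, was called in neither arm of this fit, and 212672_at gave -0.086 with SRC-1 siRNA and 0.19 with control siRNA. Which probe set reads the mature mRNA was not tested.

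**Figure D3:**
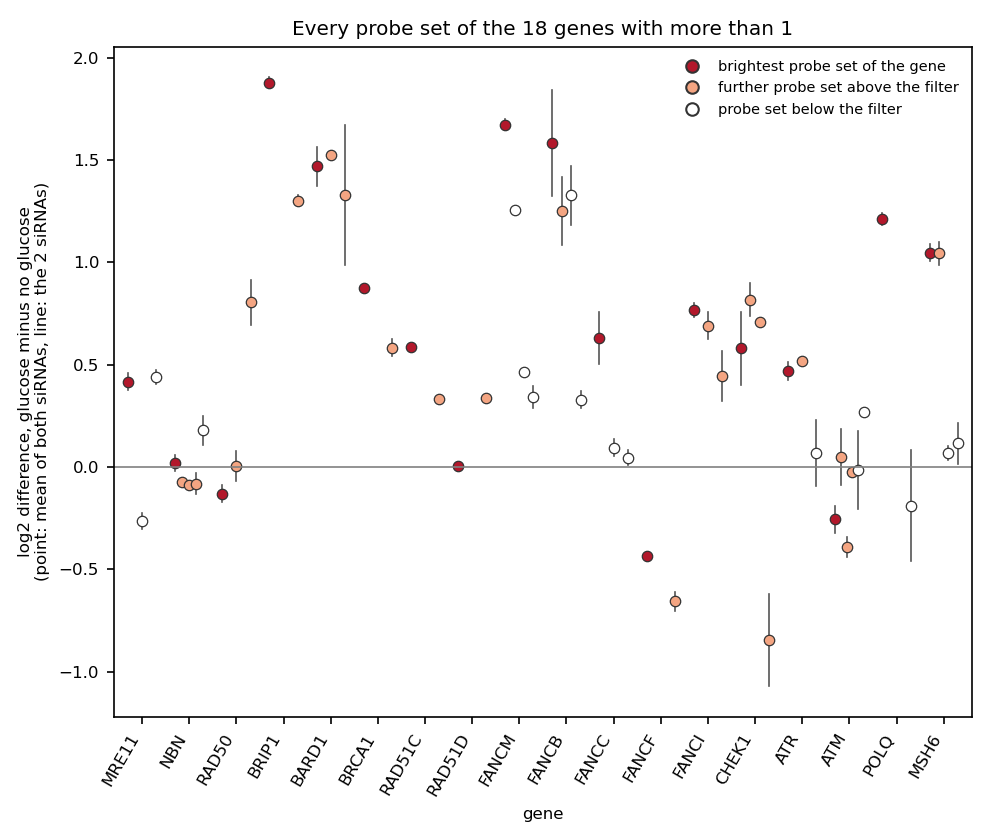
Log2 difference with minus without glucose for every probe set of the 18 genes that have more than 1, as the mean over both siRNAs (points) with a line joining the values under SRC-1 siRNA and control siRNA. Probe sets of a gene are ordered from bright to dim, with the brightest in red and those below the filter open. The dimmest CHEK1 probe set stands at -1.07 and -0.62 while the other 3 are above 0.

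Further genes of the same pathways were set beside these values, in lists drawn up with earlier results of these data known. Some lists overlap: CLSPN and TIPIN of the checkpoint list, USP1 of the recombination list and FEN1 of the base excision list are also S phase markers, CDC25C of the checkpoint list is also a G2/M marker, and ERCC1 and ERCC4 stand under both recombination and nucleotide excision repair. Of all genes, 24.6% were called higher and 20% lower with SRC-1 siRNA, and 23.6% higher and 21.6% lower with control siRNA. Of 42 further recombination and crosslink repair genes tested, 27 were higher with glucose (64.3%) and 6 lower (14.3%) with SRC-1 siRNA (median 0.34). With control siRNA 24 were higher (57.1%) and 6 lower (14.3%, median 0.30). RMI2, a partner of BLM, rose 3.02-fold and 3.01-fold, and FIGNL1, an ATPase that takes part in recombination, 2.43-fold and 2.28-fold. Of 14 further replication checkpoint genes 9 were higher (64.3%) and 2 lower (14.3%) in each arm. CLSPN, the adaptor between ATR and CHEK1, rose 2.79-fold and 2.55-fold, and CDC25A, the phosphatase that CHEK1 restrains, 3.59-fold and 3.30-fold. Of 20 genes of double-strand break signalling 9 were higher (45%) in each arm, with 3 lower (15%) under SRC-1 siRNA and 2 (10%) under control siRNA. H2AX, the histone variant that marks breaks, rose 2.31-fold and 2.43-fold.

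For the repair routes that need no sister copy, the shares of all genes to read the counts against are 24.6% higher and 20% lower with SRC-1 siRNA and 23.6% higher and 21.6% lower with control siRNA. Of 11 genes of non-homologous end joining, 4 were higher and 2 lower with SRC-1 siRNA (median -0.010), and 4 higher and 3 lower with control siRNA (median 0.072). XRCC5 and XRCC6, which together form the Ku ring on broken ends, rose by 0.40 and 0.34 with SRC-1 siRNA and by 0.47 and 0.31 with control siRNA. Of 17 further nucleotide excision repair genes, 3 were higher (17.6%) and 6 lower (35.3%) in each arm (median -0.12 and -0.090), with the damage-binding factor XPA at -0.57 and -0.55. Of 19 base excision repair genes, 10 were higher and 3 lower with SRC-1 siRNA and 9 higher and 4 lower with control siRNA, and the flap nuclease FEN1, also a replication enzyme, rose 3.33-fold and 3.39-fold. Of 3 further mismatch repair genes, MLH3 was lower with SRC-1 siRNA (-0.33) and control siRNA (-0.47), and MSH3 was higher with control siRNA (0.35). Differences between the lists were not tested.

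Cell cycle genes moved with the members. The counts below stand against 24.6% of all genes higher and 20% lower with SRC-1 siRNA, and 23.6% and 21.6% with control siRNA. Of 36 S phase markers outside the list, 34 were higher with glucose and 0 lower in each arm (median 1.27 with SRC-1 siRNA and 1.24 with control siRNA), and of 50 G2/M markers 41 were higher and 0 lower in each arm (median 0.52 and 0.49). Of 19 genes of the E2F and RB families, 12 were higher and 2 lower with SRC-1 siRNA and 11 higher and 2 lower with control siRNA, and E2F8, a repressor of the family that is also among the S phase markers, rose 4.70-fold and 4.86-fold. MCM6, a subunit of the replicative helicase, rose 4.24-fold and 3.58-fold. In RNA from whole cultures, more cells in S phase and more RNA per cell cannot be told apart, and the part of the S phase markers in the members' values was not tested. Of 23 p53 targets other than DDB2 and XPC, 7 were higher (30.4%) and 8 lower (34.8%) under SRC-1 siRNA, where 24.6% and 20% of all genes were. Under control siRNA 7 were higher (30.4%) and 7 lower (30.4%), where 23.6% and 21.6% of all genes were. Their largest called difference was that of GADD45A, at -2.12 and -2.19.

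**Figure D4:**
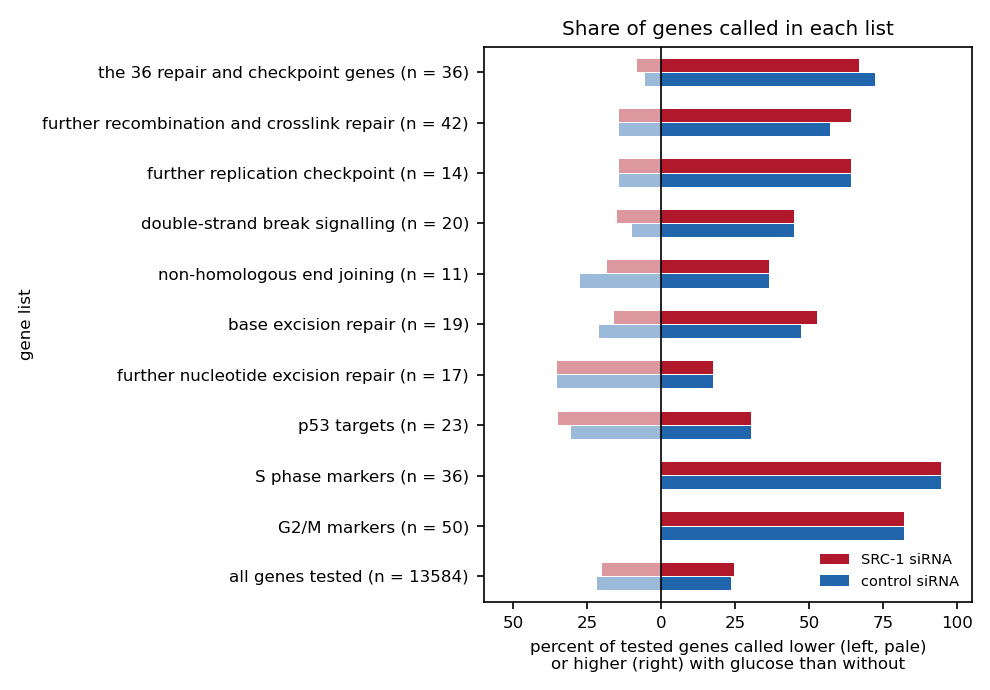
Percent of the tested genes of each list that were called higher (right, full colour) or lower (left, pale) with glucose than without, for SRC-1 siRNA (red) and control siRNA (blue), at an adjusted p below 0.05. The repair and checkpoint genes stand at 66.7% and 72.2% higher, between the S phase markers at 94.4% and all genes tested at 24.6% and 23.6%.

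No member was called for the knockdown in either medium. With glucose 0 of 36 were called, where 0.00736% of all genes were, which is NCOA1 alone. Without glucose 0 of 36 were called, where 0.0221% of all genes were, and over both media 0 of 36, where 0.0294% were. At an unadjusted p below 0.05 the counts were 1 of 36 with glucose, where 5.75% of all genes passed, 0 without glucose, where 3.19% passed, and 0 over both media, where 4.96% passed. The median difference between SRC-1 siRNA and control siRNA was 0.011 with glucose and -0.0082 without. On the probe set used for each, single genes ranged from -0.12 (MRE11) to 0.24 (CHEK1) with glucose and from -0.32 (FANCB) to 0.14 (RAD54L) without.

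The intervals limit how large a missed effect could be. On the probe set used for each gene, the 95% interval of the knockdown difference stayed within 1.5-fold for 35 of 36 genes with glucose, 35 without and 36 over both media. BRCA1 differed by -0.040 (-0.26 to 0.18) with glucose and -0.035 (-0.26 to 0.19) without, EXO1 by -0.023 (-0.18 to 0.14) and -0.049 (-0.21 to 0.11), and BRIP1 by -0.041 (-0.205 to 0.12) and 0.011 (-0.15 to 0.17). The exception in each medium was FANCB, with intervals of -0.19 to 0.59 with glucose and -0.71 to 0.069 without. Some other probe sets had intervals beyond 1.5-fold with glucose, so for their genes a larger effect is not excluded. Among them were BARD1 242655_at at 0.39 (0.18 to 0.597) and CHEK1 229423_at at -0.31 (-0.74 to 0.12), neither called. Without glucose BARD1 242655_at gave -0.29 (-0.50 to -0.087), also not called. Of the 75 probe sets, 0 were called for the knockdown, where 0.00732% of all probe sets were called lower in each medium and 0.011% over both, and 3, 1 and 0 had an unadjusted p below 0.05 with glucose, without glucose and over both, where 5.84%, 3.76% and 5.13% of all probe sets did.

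**Figure D5:**
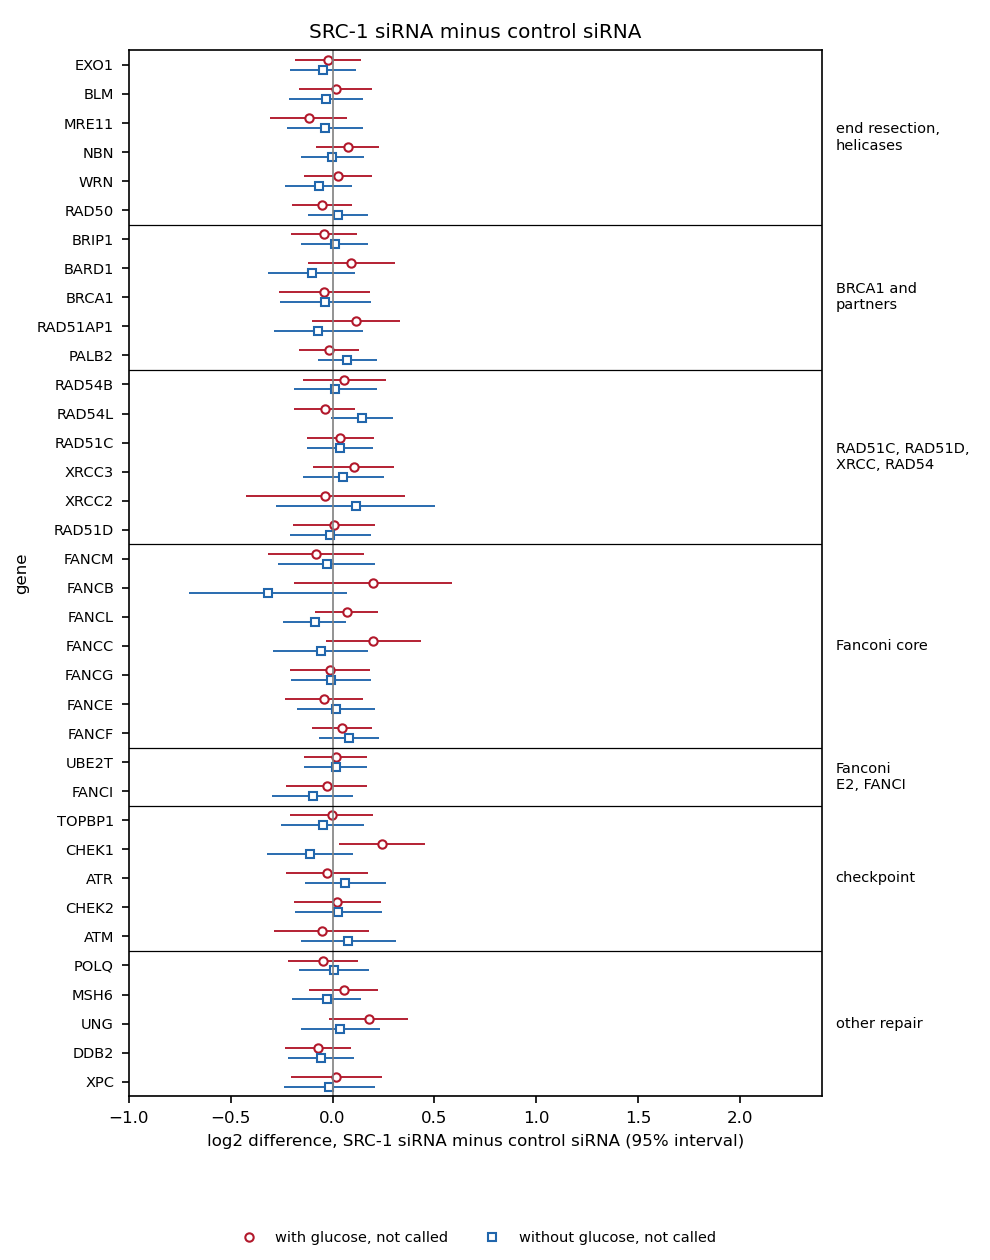
Log2 difference between SRC-1 siRNA and control siRNA on the brightest probe set of each of the 36 genes, with glucose (circles) and without (squares). Lines are 95% intervals, and the axis is that of the plot of glucose differences. All symbols are open, since no gene was called, and they lie between -0.32 and 0.24.

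The interaction asked whether the glucose difference itself changed with the knockdown. It was called for 0 of 36 members and for 0% of the 13584 genes, with 1 member and 3.42% of genes at an unadjusted p below 0.05. That member was CHEK1, whose glucose difference was larger with SRC-1 siRNA by 0.35 ± 0.13 (unadjusted p = 0.0258, adjusted p = 0.999, limma). That value came from 205394_at, and the other CHEK1 probe sets 238075_at, 205393_s_at and 229423_at gave 0.16, 0.0059 and -0.45 for the same quantity. On the probe set used for each gene, FANCB had the largest interaction, 0.52 ± 0.24 (adjusted p = 0.999), and RAD54L the lowest, -0.18 ± 0.093. Another FANCB probe set, 1557218_s_at, gave -0.33 (-0.79 to 0.12). Its mean passed the filter only through the arrays with glucose, since those without lay between 4.09 and 4.38. The FANCB probe sets below the filter, 1557217_a_at and 243597_at, gave 0.29 and -0.083. None was called, so the direction of the FANCB interaction was not settled. Of the 75 probe sets 0 had a called interaction, and 3 had an unadjusted p below 0.05, where 4.39% of all probe sets did. Those were BARD1 242655_at (0.68, unadjusted p = 0.000525), CHEK1 205394_at (0.35, unadjusted p = 0.0401) and the dim POLQ 207746_at (0.54, unadjusted p = 0.00978), each with an adjusted p of 1 (limma). BARD1 242655_at passed the filter only through its arrays with glucose. The interval of the interaction stayed within 1.5-fold for 32 of the 36 genes, on the probe set used for each.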

How the data were processed

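The values are those of the deposited series table for 8 arrays. The deposited values were read as log2 signals, and the background correction, summarization and normalization behind them are not given in the sources used here. Per the labels' protocols, biotinylated cRNA was made by the standard Affymetrix procedure. The log base is not stated either. The mean signals of the control spikes bioB, bioC, bioD and cre lay 1.94, 2 and 1.87 apart, from which the scale was inferred. The platform annotation tied 41091 of 54675 probe sets to 1 gene, 1801 to several and left 11721 unnamed, and no build is named, so no gene coordinates are given. Probe sets with 1 gene whose mean lay below the 40th percentile (4.80) were left out, and the brightest was kept per gene (13584 genes).

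One limma fit (limma 3.58.1, R 4.3.3) over all 8 arrays gave 6 contrasts with 4 residual and 4.35 prior degrees of freedom, moderated two-sided tests and Benjamini-Hochberg adjustment over all genes at 0.05. A second fit took all 54613 probe sets that are no controls. All groups share 1 estimate of the spread, whose precision is limited by having 2 arrays each. All members may be named, with up to 4 called genes of each other list by smallest p. The members and lists were chosen with earlier results of these data known. The fit was tested on simulated data. Replicate numbers are not said to mark a shared batch. The alternatives were other normalizations, filters, probe set rules, priors, array weights, fits of the groups compared, a replicate block and leaving out each array.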

Additional observations from a re-analysis of the deposited data

How the results depend on the processing

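Over the alternatives that kept all arrays, the count of members called higher with glucose lay between 17 and 26 with SRC-1 siRNA and between 17 and 27 with control siRNA. The share of all genes called under each alternative is not given here. The counts in this section therefore show only how the member calls moved, not how they stood against all genes. The 17 in the control arm came after probe sets ending in _s_at or _x_at were dropped, which left 26 of the 36 genes to test. With each array left out in turn the counts were 24 to 25 higher and 1 to 3 lower with SRC-1 siRNA, and 22 to 26 higher and 1 to 2 lower with control siRNA. The lowest counts of falls came without replicate 1 of SRC-1 siRNA without glucose (ATM and XPC lost) and without replicate 1 of control siRNA without glucose (XPC lost). A rule of at least 1.5-fold gave 0 members lower in either arm, with 20 higher under SRC-1 siRNA and 18 under control siRNA, since the falls of FANCF, XPC and ATM are smaller. Of 635 refitted member values in each glucose arm, 610 kept their direction and side of the threshold with SRC-1 siRNA and 617 with control siRNA, and the others belonged to 6 and 7 genes. RAD50 with control siRNA was a called 0.25 under the mean of its probe sets (adjusted p = 0.0345, limma), against -0.09 on the brightest. The knockdown and interaction counts were 0 in every refit. The replicate block gave 25 higher and 3 lower with SRC-1 siRNA and 26 and 2 with control siRNA, and arrays with the same number were not shown to be paired (correlations of their deviations -0.096 to 0.117). Signal over background limits FANCB, XRCC2 and XRCC3, whose signals without glucose were between 4.82 and 5.70.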
